A study of Mus musculus with 8 samples.

Results

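The 10 genes described here, Lgals6, Cap1, Wdfy1, Reep1, Pnpla3, Rpgrip1, Rab6b, Cdk5rap1, Tmem87a and Stk25, were taken as all probe sets that carry these names, and they were chosen by these same intensities, because at least 1 probe set of each gene lay near 2-fold or more apart between 2 genotypes. They have 16 probe sets of the 21556 named ones, and they are 10 of the 13201 genes named in the deposited table, to which all statements on probe sets refer. Gene expression was measured with Affymetrix mouse arrays in epidermal sheets that had been lifted off the dermis with dispase, from skin taken 3 days post depilation. There were 3 arrays of Tcl1-/- mice, 3 of K14-TCL1 mice and 2 of WT mice. Tcl1-/- mice lack Tcl1. K14-TCL1 mice carry human TCL1A under the keratin 14 promoter, which is active in basal keratinocytes (KCs), and the methods place them on the Tcl1-/- background, so both mutant groups share the loss of Tcl1. The methods give C57bl/6 as the strain of WT, give no strain for the mutants and name 3 animals and 3 chips for each genotype, whereas 2 WT arrays were analysed here. The mice are described as adult, and no age is given in the sources used here. A genotype therefore cannot be told apart from the strain, litter or preparation that went with it.

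The 10 genes were grouped by their large differences and not by a pathway, and other genes with differences as large were left out. A mutant line can differ from its control in single genes for reasons apart from the mutation. Inbred strains of mice differ in gene copies, in deletions and in regulatory variants, and a mutant made in one strain and bred to another keeps stretches of the first strain's chromosomes, the longest of them usually around the targeted gene. Genes carried along in this way are called passengers. A microarray probe set can also respond to a sequence difference under its probes with no difference in the amount of RNA. These statements are background, and strain was not measured on the arrays. The values below are what the choice of the genes rested on, so they are given as a description and carry no test. Tests were kept to genes whose values the choice did not use. These were the neighbours of the 10 genes on the chromosome and their relatives in protein family or function. The genes around Tcl1 and markers of cell types were tested too. These lists were also chosen with earlier results of these data known.

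Values are RMA intensities on the linear scale (background corrected, quantile normalized and summarized over the probes of a probe set), and differences are between genotype means on the log2 scale ± the standard error of the fit. The leading probe set of a gene is the one with the largest such difference. Of the 10 leading probe sets, 8 lay at least 2-fold apart between Tcl1-/- and WT (6 higher and 2 lower in Tcl1-/-), 7 between K14-TCL1 and WT (5 higher and 2 lower in K14-TCL1) and 5 between Tcl1-/- and K14-TCL1 (3 higher and 2 lower in Tcl1-/-). Across the 9731 genes whose intensity passed the filter, 134, or 1.38%, had a probe set at least 2-fold apart between any 2 genotypes. Arrays did not overlap for 9, 9 and 10 of the leading probe sets in the same 3 comparisons, where 55.5%, 48.8% and 41.3% of all tested probe sets did not. At an adjusted p under 0.05, limma called 22.7%, 17.9% and 23.0% of all tested probe sets. Ordered by their largest difference, the genes ran from Lgals6, rank 2 of all tested genes at 45.2-fold against a WT level under the intensity filter of 32, to Cdk5rap1, rank 78 at 2.45-fold. Just inside the 2-fold limit but not among the 10 were Acaa1b at 2.01-fold and Irak4 at 2.00-fold, and just outside it were Nkd2 at 1.99-fold and Ggnbp2 at 1.98-fold. WT serves in both comparisons against it, so those are not independent of each other.

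**Figure D1:**
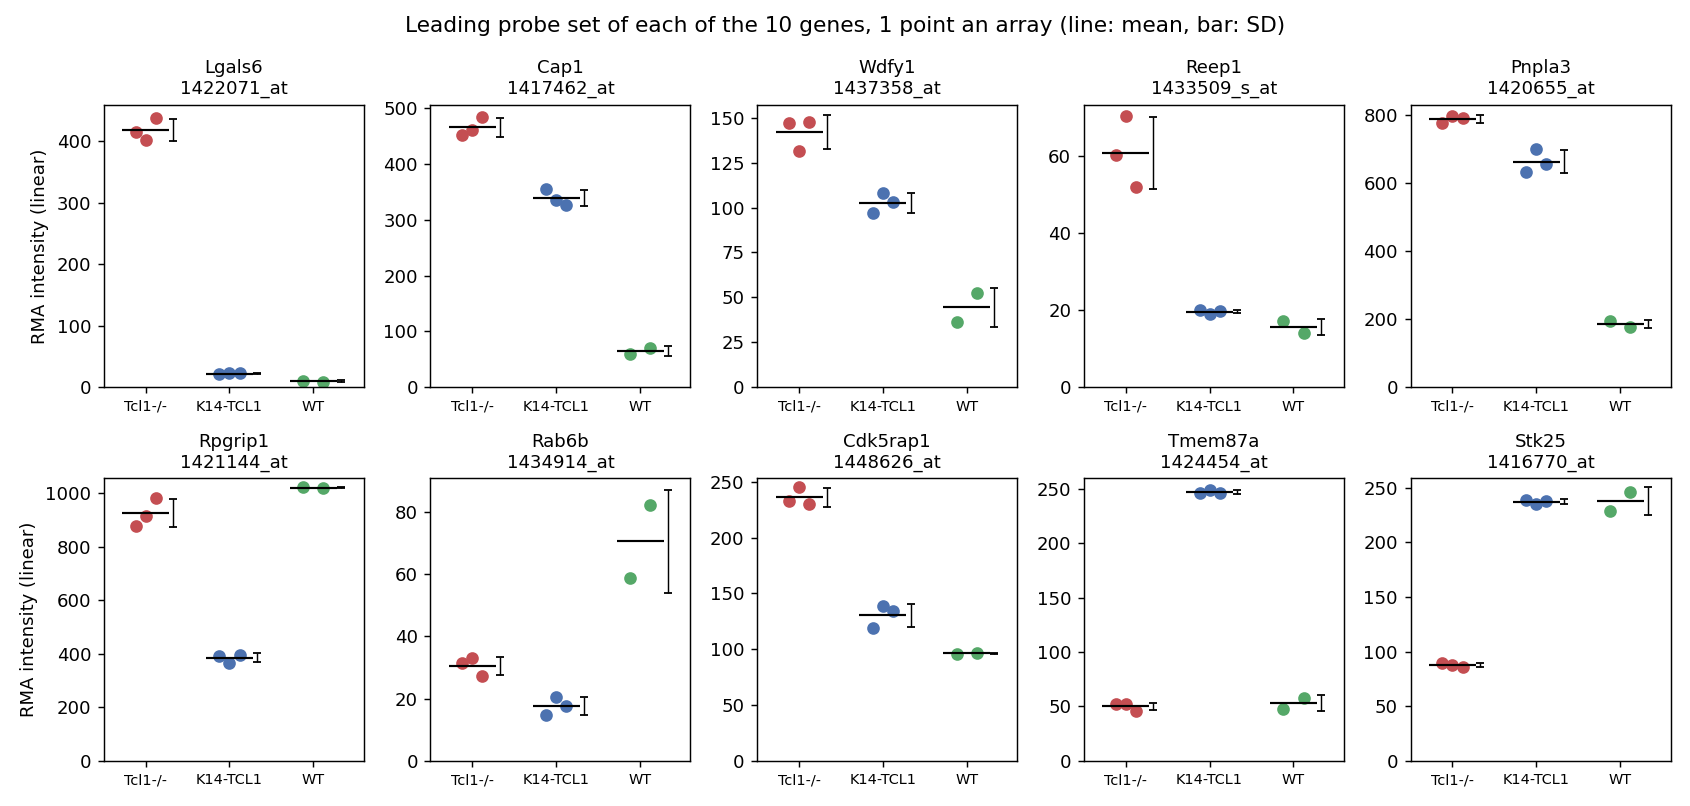
RMA intensity (linear axis from 0) of the leading probe set of each gene, 1 point an array, with the mean as a line and the SD as a bar, for 3 Tcl1-/- arrays (left), 3 K14-TCL1 arrays and 2 WT arrays (right). Lgals6 and Reep1 stand high on the Tcl1-/- arrays alone, Tmem87a on the K14-TCL1 arrays alone, and Stk25 is low on the Tcl1-/- arrays alone.

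K14-TCL1 took every possible place relative to the other genotypes. With "near" meaning within 0.5 on the log2 scale, it was near Tcl1-/- for 3 leading probe sets (Cap1, Wdfy1 and Pnpla3), near WT for 3 (Reep1, Cdk5rap1 and Stk25), between both for 1 (Lgals6) and outside both for 3 (Rpgrip1, Rab6b and Tmem87a). The place for Wdfy1 depended on the probe set, since K14-TCL1 was near WT on 1424749_at and near both on 1453426_a_at. On the leading probe set of Wdfy1, Tcl1-/- was 0.43 to 0.52 above K14-TCL1 with 1 array left out, which crosses the limit of 0.5. 

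Cap1 and Pnpla3 were high in both mutant genotypes. Cap1, cyclase-associated protein 1, binds actin monomers and helps cofilin recycle actin filaments. Its leading probe set 1417462_at read 452, 462 and 485 in Tcl1-/-, 356, 335 and 327 in K14-TCL1, and 59.0 and 70.8 in WT. The lowest mutant array was thus far above the highest WT array, and the Tcl1-/- arrays all lay above the K14-TCL1 arrays. The difference from WT was 2.85 ± 0.078 in Tcl1-/- (7.22-fold) and 2.39 ± 0.078 in K14-TCL1 (5.25-fold), and Tcl1-/- was 0.46 ± 0.070 above K14-TCL1. By this probe set Cap1 stood at the 81.2 percentile of all probe sets in Tcl1-/- and the 42.3 percentile in WT.

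Pnpla3, a patatin-like phospholipase domain protein that sits on lipid droplets, has 1 probe set, 1420655_at. It read 777, 797 and 793 in Tcl1-/-, 634, 700 and 655 in K14-TCL1, and 195 and 177 in WT. The order of the genotypes was that of Cap1, again without overlap. The difference from WT was 2.09 ± 0.058 in Tcl1-/- (4.25-fold) and 1.84 ± 0.058 in K14-TCL1 (3.57-fold), and Tcl1-/- exceeded K14-TCL1 by 0.25 ± 0.051.

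The promoters of Cap1 and Pnpla3 are shown because these genes showed the same order of genotypes and were the members with the largest distance of both mutants from WT. They are 300 bases from RefSeq on GRCm38.p6, 250 before and 50 after the start of the gene, for Cap1 at chr4:122886027-122886326 on the minus strand and for Pnpla3 at chr15:84167566-84167865 on the plus strand. Capitals mark matches, on either strand, to the TATA box letters TATAAA, the CCAAT box letters CCAAT and the GC box letters GGGCGG, none of which overlapped another.
Cap1: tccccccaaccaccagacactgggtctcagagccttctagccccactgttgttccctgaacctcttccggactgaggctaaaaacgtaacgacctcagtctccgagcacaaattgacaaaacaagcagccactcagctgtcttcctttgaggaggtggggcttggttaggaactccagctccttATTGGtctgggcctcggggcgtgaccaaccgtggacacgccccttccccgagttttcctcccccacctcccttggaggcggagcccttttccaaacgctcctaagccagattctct
Pnpla3: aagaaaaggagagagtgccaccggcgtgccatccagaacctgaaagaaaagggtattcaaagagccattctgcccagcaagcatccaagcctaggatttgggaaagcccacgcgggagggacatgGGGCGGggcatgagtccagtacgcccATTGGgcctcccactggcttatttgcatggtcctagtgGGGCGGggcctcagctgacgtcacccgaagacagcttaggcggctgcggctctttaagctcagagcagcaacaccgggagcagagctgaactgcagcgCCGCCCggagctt
Both hold 1 CCAAT match, read on the opposite strand as ATTGG. Pnpla3 holds 3 GC box matches and Cap1 none, and neither holds the TATA letters. Among 27025 RefSeq promoters of this length, 37.9% hold CCAAT, 35.9% GGGCGG and 14.2% TATAAA. Of the 8 genes with a promoter in the table (Lgals6 and Wdfy1 have none), 4 hold CCAAT, 6 GGGCGG and 1, Rpgrip1, TATAAA. GC content was 57.0% for Cap1 and 59.7% for Pnpla3, where the median promoter had 52.7%. These matches describe the letters only.

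Wdfy1, a protein with a FYVE finger that binds the phosphoinositide of early endosomes and is known as an adaptor of Toll-like receptors 3 and 4, had the same order by its leading probe set 1437358_at. It read 147, 131 and 148 in Tcl1-/-, 97.1, 108 and 103 in K14-TCL1, and 36.5 and 52.2 in WT. The difference from WT was 1.70 ± 0.13 in Tcl1-/- (3.25-fold) and 1.23 ± 0.13 in K14-TCL1 (2.35-fold). No arrays overlapped between genotypes, but the residual spread of this probe set was wide, at the 95.6 percentile of all named probe sets. With WT replicate 1 left out the K14-TCL1 difference was 0.98, and with WT replicate 2 left out it was 1.49.

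Another 3 genes had K14-TCL1 arrays near WT. Stk25, a kinase of the germinal centre kinase III group that works at the Golgi and in the STRIPAK complex, was low in Tcl1-/- alone. Its probe set 1416770_at read 89.8, 88.1 and 85.5 in Tcl1-/-, 239, 235 and 238 in K14-TCL1, and 228 and 247 in WT. K14-TCL1 arrays fell inside the range of the WT arrays, and every Tcl1-/- array was far below both. Tcl1-/- differed from WT by -1.43 ± 0.046 and from K14-TCL1 by -1.43 ± 0.041, so that WT was 2.70-fold higher than Tcl1-/-, whereas K14-TCL1 and WT were -0.00097 ± 0.046 apart. Replicates of this probe set were among the tighter ones, with a residual spread at the 17.0 percentile.

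Reep1, which shapes tubules of the endoplasmic reticulum and is mutated in a human hereditary spastic paraplegia, had the opposite direction. Probe set 1433509_s_at, of a type that can read more than 1 transcript, gave 60.2, 70.6 and 52.0 in Tcl1-/-, 19.9, 19.1 and 19.7 in K14-TCL1, and 17.2 and 14.1 in WT. Only the Tcl1-/- arrays reached past the filter at an intensity of 32. The difference was 1.96 ± 0.12 between Tcl1-/- and WT (3.89-fold), 1.63 ± 0.11 between Tcl1-/- and K14-TCL1 (3.09-fold) and 0.33 ± 0.12 between K14-TCL1 and WT.

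Cdk5rap1, an enzyme that modifies mitochondrial transfer RNAs and was first described as a binding partner of a Cdk5 activator, read 233, 246 and 230 in Tcl1-/-, 119, 139 and 134 in K14-TCL1, and 96.1 and 96.7 in WT (1448626_at). No arrays overlapped between any genotypes. The K14-TCL1 arrays were nonetheless closer to WT, with differences from WT of 1.29 ± 0.066 in Tcl1-/- (2.45-fold) and 0.43 ± 0.066 in K14-TCL1 (1.35-fold) and of 0.86 ± 0.059 between Tcl1-/- and K14-TCL1.

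Lgals6 spanned the widest range. It encodes a galectin with 2 sugar-binding domains that is closely related to Lgals4 in sequence, is known from the mouse digestive tract, and is present in some inbred mouse strains and absent from others. Its probe set 1422071_at read 415, 403 and 438 in Tcl1-/-, 21.2, 22.2 and 22.4 in K14-TCL1, and 10.4 and 8.25 in WT. Tcl1-/- arrays thus lay in the upper part of the scale, at the 79.5 percentile of all probe sets, against the 22.9 percentile in K14-TCL1 and the 6.10 percentile in WT. Differences were 5.50 ± 0.089 between Tcl1-/- and WT (45.2-fold), 4.25 ± 0.079 between Tcl1-/- and K14-TCL1 (19.1-fold) and 1.25 ± 0.089 between K14-TCL1 and WT (2.37-fold). Both K14-TCL1 and WT were under the filter at 32, where intensities hold mostly background, so the folds of Tcl1-/- over them are folds over background, and the size of the difference between K14-TCL1 and WT is poorly determined.

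Tmem87a, a membrane protein of the Golgi, was high in K14-TCL1 alone. Probe set 1424454_at read 52.3, 51.9 and 46.0 in Tcl1-/-, 246, 249 and 246 in K14-TCL1, and 47.6 and 58.0 in WT. The Tcl1-/- and WT arrays overlapped, and the K14-TCL1 arrays were within a few units of each other. K14-TCL1 exceeded WT by 2.23 ± 0.086 (4.70-fold), Tcl1-/- differed from K14-TCL1 by -2.31 ± 0.077 (K14-TCL1 4.95-fold higher), and Tcl1-/- and WT were -0.073 ± 0.086 apart.

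Rpgrip1, a scaffold of the photoreceptor connecting cilium that binds RPGR, was low in K14-TCL1 alone by its leading probe set 1421144_at. It gave 877, 916 and 981 in Tcl1-/-, 394, 367 and 397 in K14-TCL1, and 1022 and 1020 in WT. K14-TCL1 lay -1.41 ± 0.058 from WT (WT 2.65-fold higher) and Tcl1-/- exceeded K14-TCL1 by 1.26 ± 0.052 (2.40-fold), whereas Tcl1-/- and WT differed by -0.14 ± 0.058. Its WT level was at the 91.6 percentile of all probe sets.

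Rab6b, a Golgi GTPase best known from neurons, was lower in both mutant genotypes and lowest in K14-TCL1. Its probe set 1434914_at read 31.4, 32.9 and 27.3 in Tcl1-/-, 14.7, 20.7 and 17.7 in K14-TCL1, and 58.8 and 82.2 in WT. The genotypes did not overlap, but the WT arrays were far apart, and the residual spread was at the 99.1 percentile. Differences were -1.19 ± 0.17 between Tcl1-/- and WT (WT 2.29-fold higher), -1.99 ± 0.17 between K14-TCL1 and WT (WT 3.97-fold higher) and 0.79 ± 0.15 between Tcl1-/- and K14-TCL1. Without WT replicate 2 the Tcl1-/- difference was -0.95, below 2-fold. The means of Tcl1-/- (30.5) and K14-TCL1 (17.7) were both under the filter, so the probe set passed it through WT, and the difference between the mutants lies in the range of the background. All 3 nerve markers measured (Snap25, Syp and Nefl) were under the filter too, with sums of 36.3 to 44.1 in Tcl1-/-, 41.5 to 43.6 in K14-TCL1 and 37.6 to 38.3 in WT.

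**Figure D2:**
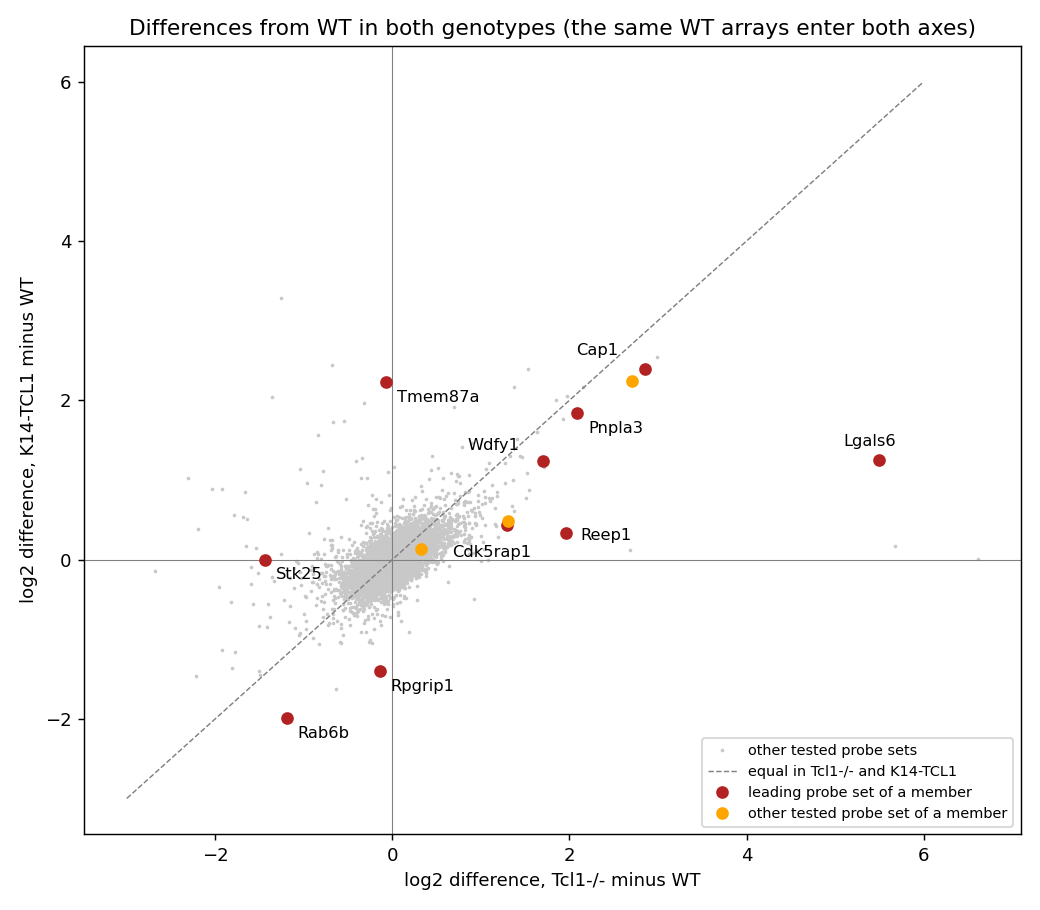
Log2 difference from WT of every tested probe set, Tcl1-/- on the x axis and K14-TCL1 on the y axis, with the members' leading probe sets in red, their other tested probe sets in orange, the remaining probe sets in grey and equal differences on the dashed line. Cap1, Pnpla3 and Wdfy1 lie close to the line, Stk25, Reep1 and Lgals6 nearer the horizontal axis, Tmem87a and Rpgrip1 near the vertical axis. Both axes use the same WT arrays.

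Only 3 of the 10 genes had more than 1 probe set. For Cap1 both probe sets gave the same picture: 1417461_at read 1144, 1166 and 1209 in Tcl1-/-, 845, 886 and 821 in K14-TCL1, and 185 and 175 in WT. Its differences from WT, 2.70 ± 0.049 in Tcl1-/- and 2.24 ± 0.049 in K14-TCL1, were close to the 2.85 and 2.39 of the leading probe set, and the distance between Tcl1-/- and K14-TCL1 was 0.46 on both.

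For Wdfy1 the 3 probe sets kept the order of the genotype means but not the size. Probe set 1424749_at read 121, 117 and 126 in Tcl1-/-, 77.9, 49.7 and 83.4 in K14-TCL1, and 47.3 and 50.9 in WT. K14-TCL1 replicate 2 lay inside the WT range here, while on the leading probe set it was the highest of its group. The difference from WT was 1.30 ± 0.19 in Tcl1-/- and 0.48 ± 0.19 in K14-TCL1, where it was 0.72 without K14-TCL1 replicate 2. The third, 1453426_a_at, read 61.2, 56.1 and 56.1 in Tcl1-/-, 49.2, 49.3 and 53.4 in K14-TCL1, and 46.0 and 45.9 in WT, with differences from WT of 0.33 ± 0.056 in Tcl1-/- and 0.14 ± 0.056 in K14-TCL1. A factor of 2 between Tcl1-/- and WT was therefore present on 2 of the 3 Wdfy1 probe sets.

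Of the 4 Rpgrip1 probe sets, the 3 that were not the leading one (1431357_a_at, 1451785_at and 1454231_a_at) ranged from 6.58 to 15.6 in Tcl1-/-, 7.55 to 15.7 in K14-TCL1 and 6.76 to 14.6 in WT, all under the filter and therefore not tested, in a range where a change could not have been seen. Their differences from WT were between -0.13 and 0.047 in Tcl1-/- and between -0.074 and 0.060 in K14-TCL1. The values of Rpgrip1 thus rest on 1 of 4 probe sets. The deposited table gave no second probe set for the other 7 genes.

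**Figure D3:**
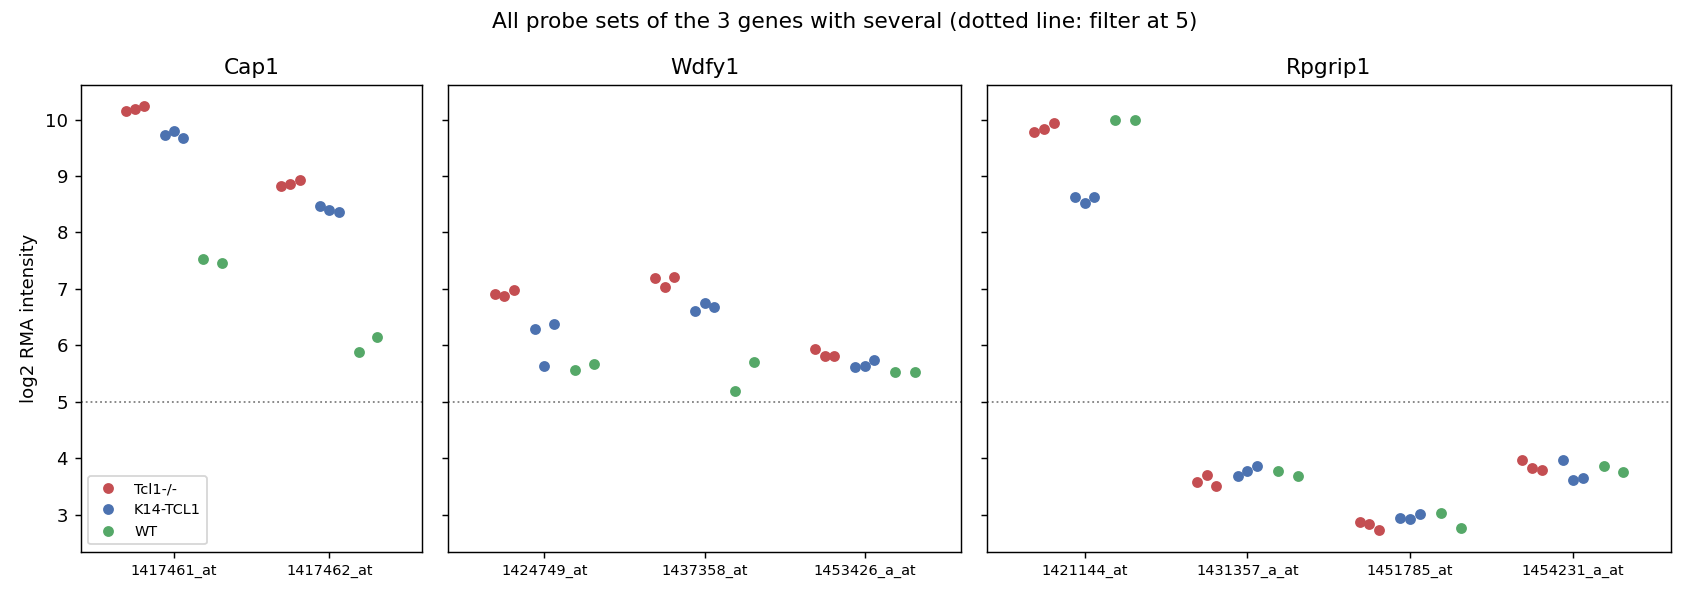
Log2 RMA intensity of all probe sets of Cap1, Wdfy1 and Rpgrip1, 1 point an array, coloured by genotype with Tcl1-/- on the left and WT on the right of each probe set. The filter at 5 is a dotted line. The Cap1 probe sets run in parallel, those of Wdfy1 differ in size, and 3 of the 4 Rpgrip1 probe sets lie below the filter on every array.

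Other genes had like patterns. Likeness was the Euclidean distance in the pair of log2 differences from WT, over 3 genotypes and 8 arrays, and the 2 nearest genes are given in order. Cap1 was nearest to Fos (distance 0.21) and Iigp1 (0.73), Pnpla3 to Cxcl9 (0.18) and Gbp2 (0.24), and Wdfy1 to Dusp1 (0.077) and Nfia (0.24). Fos is a subunit of the AP-1 transcription factor, Dusp1 a phosphatase of MAP kinases, and Iigp1, Cxcl9 and Gbp2 are genes that interferon gamma induces. Stk25 was nearest to Krt16 (0.18) and Sprr1b (0.18), a keratin and a cornified envelope precursor of activated KCs. Tmem87a was nearest to 2610528A11Rik (0.36) and S100a9 (0.64), and Cdk5rap1 to the Wdfy1 probe set 1424749_at (0.049) and Rgs4 (0.12). Rpgrip1 lay nearest to Gch1 (0.36) and Kif23 (0.41), Rab6b to Tnc (0.62) and Dio2 (0.66), and Reep1 to Lancl1 (0.63) and Abi3bp (0.65). Lgals6 had no close companion: its nearest was an H2-D1 probe set of the cross-reacting _x_at type, at a distance of 1.09, with differences from WT of 5.68 in Tcl1-/- and 0.17 in K14-TCL1, and then Fos at 2.82.

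Of the 10 genes, 9 have a place in the RefSeq table. Cap1 is on chromosome 4, Wdfy1 and Stk25 on 1, Reep1 on 6, Pnpla3 on 15, Rpgrip1 on 14, Rab6b on 9, and Cdk5rap1 and Tmem87a on 2. Tcl1 is on chromosome 12, which held none of the 9. The pairs on 1 chromosome were not close, with 54 tested genes between Wdfy1 and Stk25 and 161 between Cdk5rap1 and Tmem87a. Lgals6 had no entry in the table and its neighbours were not analysed here.

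The neighbours of the 9 genes were used to look at the regions around them. Shares pooled over 9 regions cannot tell whether any single region differed. They were the 5 nearest tested genes by start on either side, 90 in all, each by its highest-mean probe set and tested with limma over all tested probe sets (Benjamini-Hochberg, called at an adjusted p under 0.05). Between Tcl1-/- and WT 22 of the 90 were called, 11 higher and 11 lower in Tcl1-/-, or 24.4%, beside 24.3% of all tested genes (13.2% higher and 11.2% lower). Between K14-TCL1 and WT 12 were called, 6 higher and 6 lower in K14-TCL1, or 13.3%, beside 19.2% (10.5% higher and 8.72% lower). Between Tcl1-/- and K14-TCL1 18 were called, 8 higher and 10 lower in Tcl1-/-, beside 24.0% of all tested genes (12.6% higher and 11.4% lower). The shares were near or below the background. The median size of the difference was 0.080, 0.084 and 0.081 among neighbours in these comparisons, beside 0.097, 0.092 and 0.088 among all genes, and 2 of 90 neighbours (2.22%) differed by over 1.5-fold between any 2 genotypes, beside 3.72% of all genes. With either WT array left out fewer neighbours were called against WT, and fewer of all probe sets too.

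Taking each gene in the comparison where its own difference was largest, 12 of its neighbours were called the same way as the gene, 7 the other way and 71 not at all. Of the 18 genes immediately next to a member, 7 were called between Tcl1-/- and WT (38.9%, beside 24.3% of all tested genes), 3 between K14-TCL1 and WT (16.7%, beside 19.2%) and 5 between Tcl1-/- and K14-TCL1 (27.8%, beside 24.0%). The 7 are named after their values had been seen. Ppt1 (0.27) and Mycl (0.36) beside Cap1, Kcne4 (0.21) beside Wdfy1 and Kdm3a (0.43) beside Reep1 were higher in Tcl1-/-, as these members were. Slco2a1 (-0.41) and Srprb (-0.17) were lower, as was Rab6b between them. In K14-TCL1, where Cap1, Wdfy1 and Rab6b differed from WT too, Slco2a1 was called lower (adjusted p = 0.00883). Ppt1, Mycl, Kcne4 and Srprb were not called there (adjusted p = 0.0828, 0.274, 0.353 and 0.136). The next gene was again taken between Tcl1-/- and WT. Ganc (0.35) was higher beside Tmem87a, which differed by -0.073. Cdk5rap1 had the quietest surroundings, with 0, 0 and 1 of 10 neighbours called in these comparisons.

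The 2 neighbours over 1.5-fold were Supt16 and Irs1. Supt16, next to Rpgrip1 and a subunit of the histone chaperone FACT, read 356, 398 and 425 in Tcl1-/-, 688, 778 and 666 in K14-TCL1, and 386 and 422 in WT. It was high in K14-TCL1 alone, the same genotype in which Rpgrip1 was low. Supt16 rose by 0.81 ± 0.091 in K14-TCL1 relative to WT (1.76-fold, adjusted p = 0.000822) and differed by -0.86 ± 0.081 between Tcl1-/- and K14-TCL1 (adjusted p = 0.000386), while Tcl1-/- and WT were -0.042 ± 0.091 apart (adjusted p = 0.788). Its second probe set, 1449578_at, read 49.1 to 54.8 in Tcl1-/-, 61.8 to 89.0 in K14-TCL1 and 56.6 to 61.6 in WT. That probe set was 0.28 ± 0.14 higher in K14-TCL1 than in WT, which missed the threshold (adjusted p = 0.198), and differed by -0.49 ± 0.12 between Tcl1-/- and K14-TCL1 (adjusted p = 0.0242). Further along, Rab2b, a Golgi GTPase, was lower in Tcl1-/- than in K14-TCL1, with a difference of -0.46 (adjusted p = 0.0127).

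Irs1, the third tested gene from Wdfy1 and an adaptor of the insulin and IGF1 receptors, read 675, 673 and 671 in Tcl1-/-, 490, 554 and 504 in K14-TCL1, and 410 and 410 in WT. Its genotypes had the order of Wdfy1 and did not overlap. Irs1 rose in Tcl1-/- by 0.72 ± 0.054 (1.64-fold, adjusted p = 6.94e-05) and in K14-TCL1 by 0.33 ± 0.054 (adjusted p = 0.00561), both relative to WT, and Tcl1-/- exceeded K14-TCL1 by 0.39 ± 0.049 (adjusted p = 0.00138). The neighbour of Wdfy1 on the same side, Mrpl44, differed from WT by 0.12 in Tcl1-/- (adjusted p = 0.179) and 0.25 in K14-TCL1 (adjusted p = 0.0215), and on the other side the nearest gene, Kcne4, rose by 0.21 in Tcl1-/- (adjusted p = 0.0279) and the next, Farsb, fell by 0.39 (adjusted p = 0.00108). The Mrpl44 call was lost without WT replicate 1 (adjusted p = 0.153), and the Kcne4 call without Tcl1-/- replicate 1 or 3 or either WT replicate (highest adjusted p = 0.148). Mrpl44, Kcne4 and Farsb were named after their values had been seen.

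Around Pnpla3, 4 of 10 neighbours were called between Tcl1-/- and WT and 4 between K14-TCL1 and WT, in both directions. Arhgap8, a GTPase activating protein, read 133, 133 and 130 in Tcl1-/-, 131, 135 and 147 in K14-TCL1, and 95.4 and 96.7 in WT. Like Pnpla3 it was higher in both mutants than in WT, by 0.46 ± 0.052 in Tcl1-/- (adjusted p = 0.000584) and 0.51 ± 0.052 in K14-TCL1 (adjusted p = 0.000524). Cyb5r3, cytochrome b5 reductase, rose by 0.52 ± 0.037 in Tcl1-/- (adjusted p = 5.39e-05) and 0.32 ± 0.037 in K14-TCL1 (adjusted p = 0.00103), relative to WT. Of its 4 probe sets 3 were higher in both mutants, by 0.52 to 0.81 in Tcl1-/- and 0.32 to 0.47 in K14-TCL1, and the dimmest, 1430734_at, was not called (adjusted p = 0.902 in Tcl1-/- and 0.732 in K14-TCL1). Between Cyb5r3 and Pnpla3 in the order lay Arfgap3, which fell by 0.31 in Tcl1-/- (adjusted p = 0.00719) and 0.25 in K14-TCL1 (adjusted p = 0.0217), also named after its values had been seen. Its call in Tcl1-/- was lost without WT replicate 1, and that in K14-TCL1 without K14-TCL1 replicate 3 or either WT replicate.

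Beside Rab6b, Topbp1, a scaffold of the DNA damage checkpoint, fell by 0.43 in Tcl1-/- (adjusted p = 0.000972) and by 0.30 in K14-TCL1 (adjusted p = 0.00833), the direction of Rab6b. The K14-TCL1 call was lost without WT replicate 2 (adjusted p = 0.0686). Beside Tmem87a, which was high in K14-TCL1, Ehd4, an ATPase of endosomal membranes, fell by 0.42 in K14-TCL1 (adjusted p = 0.00802) and by 0.37 in Tcl1-/- (adjusted p = 0.0104). Both Ehd4 calls were lost without WT replicate 1, and the one in Tcl1-/- also without WT replicate 2. Near Stk25, Dtymk, thymidylate kinase, was lower in Tcl1-/-, with a difference of -0.39 from K14-TCL1 (adjusted p = 0.00099) and -0.28 from WT (adjusted p = 0.00596), again the direction of Stk25, though the call against WT was lost without WT replicate 1 (adjusted p = 0.0524).

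**Figure D4:**
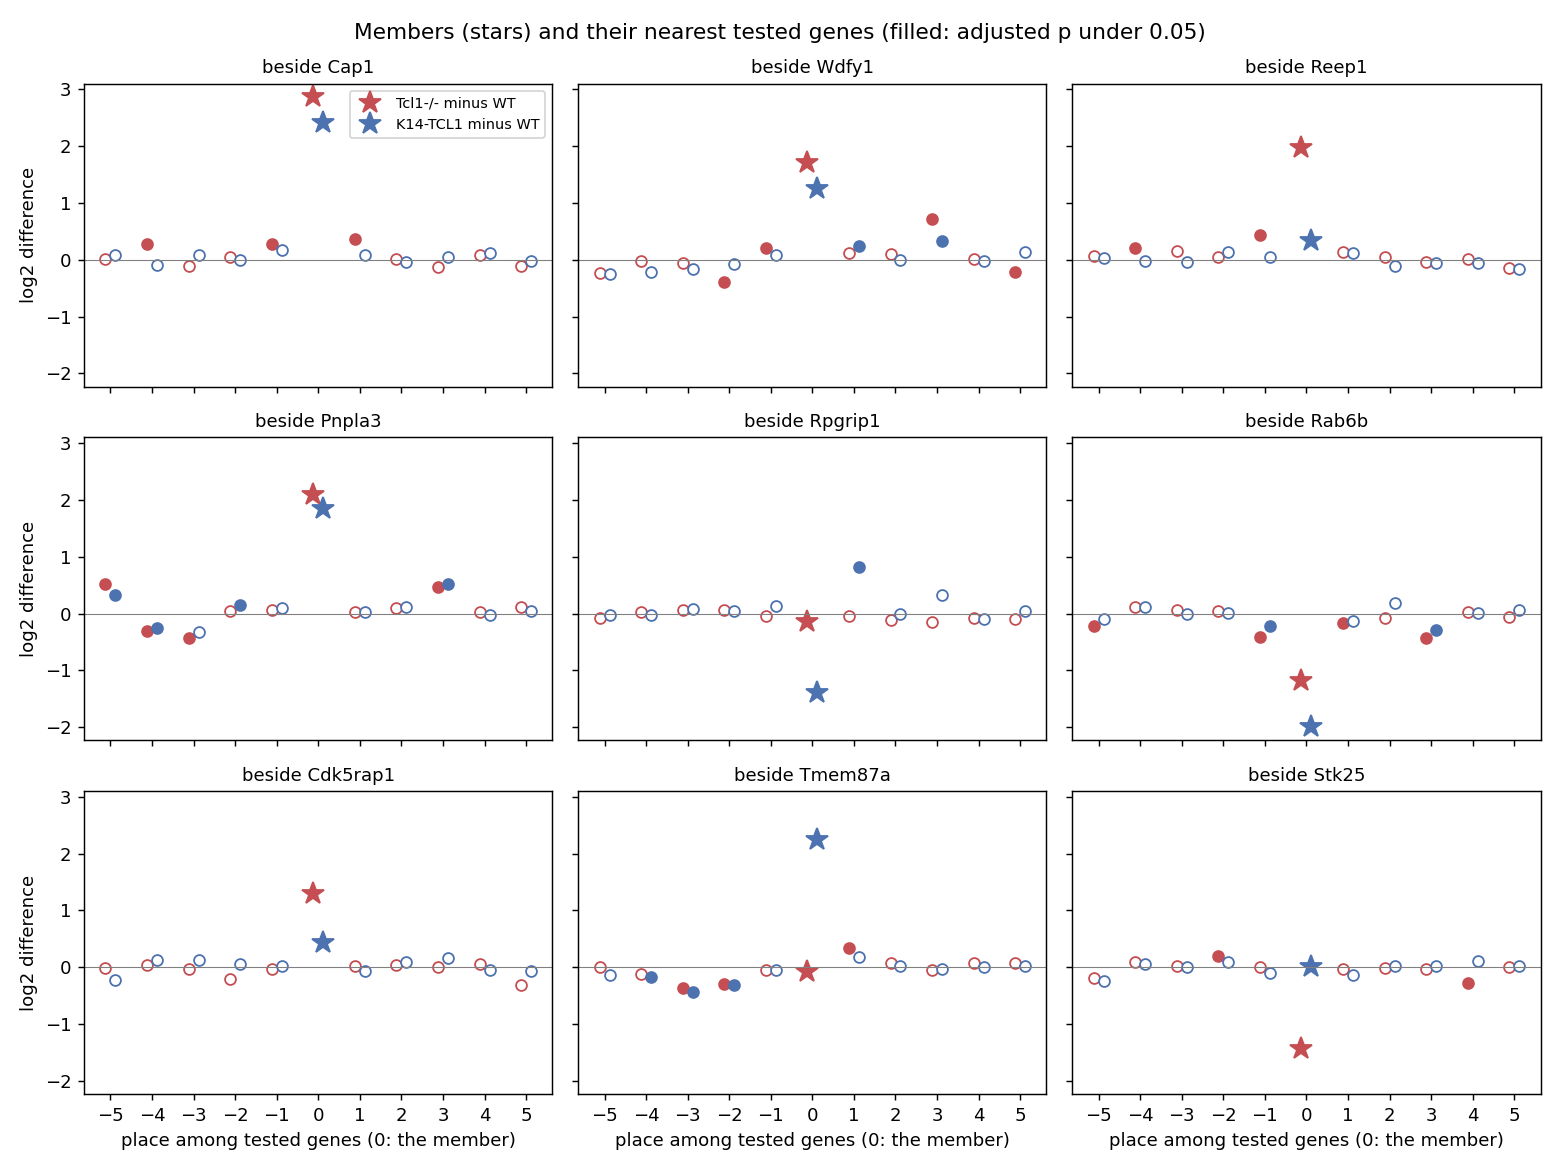
Log2 difference from WT in Tcl1-/- (red) and K14-TCL1 (blue) of 9 members by their leading probe sets (stars, place 0) and of the 5 nearest tested genes on either side, with filled circles for an adjusted p under 0.05. Stars lie apart from the circles around them, except for the stars of a genotype in which the member was near WT. The largest neighbours are Supt16 at place 1 beside Rpgrip1 (0.81 in K14-TCL1) and Irs1 at place 3 beside Wdfy1 (0.72 in Tcl1-/-).

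The deleted locus was looked at in the same way. The Tcl1 probe set read 32.1 to 33.3 in Tcl1-/-, 30.6 to 35.8 in K14-TCL1 and 29.8 to 31.1 in WT, near the filter in every genotype, so it gives no check of the deletion. Of the 10 tested genes around Tcl1, 3 were called between Tcl1-/- and WT (30.0%, beside 24.3% of all tested genes), 1 of 10 between K14-TCL1 and WT (beside 19.2%) and 1 of 10 between Tcl1-/- and K14-TCL1 (beside 24.0%). Clmn fell by 0.42 in Tcl1-/- (adjusted p = 0.0246) and by 0.44 in K14-TCL1 (adjusted p = 0.0254), Tcl1b1, a paralog of Tcl1, was 0.17 higher in Tcl1-/- than in WT (adjusted p = 0.0154) and Vrk1 0.21 higher (adjusted p = 0.0153). The Tcl1b1 probe set was of the cross-reacting _x_at type and dim, with means of 52.9 in Tcl1-/- and 46.9 in WT. Each of these calls was lost when WT replicate 1 was left out, the highest adjusted p over the alternatives being 0.18 (Tcl1-/-) and 0.175 (K14-TCL1) for Clmn, 0.106 for Tcl1b1 and 0.108 for Vrk1. The calls of Tcl1b1 and Vrk1 were also lost without WT replicate 2. That of Tcl1b1 was lost too without Tcl1-/- replicate 1 or with limma's trend, and that of Vrk1 without Tcl1-/- replicate 2. The Clmn call in Tcl1-/- was lost without Tcl1-/- replicate 1 or 2, and that in K14-TCL1 without any 1 of the K14-TCL1 replicates. None of the 10 was over 1.5-fold apart between 2 genotypes. The Tcl1-/- count ran from 0 to 4 when 1 array was left out.

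Relatives of the 10 genes were a list of 70 paralogs and partners, of which 59 were in the deposited table and 54 tested. Between Tcl1-/- and WT 17 of the 54 were called (10 higher and 7 lower in Tcl1-/-, 31.5%), between K14-TCL1 and WT 14 (9 higher and 5 lower in K14-TCL1, 25.9%), and between Tcl1-/- and K14-TCL1 9 (6 higher and 3 lower in Tcl1-/-, 16.7%), beside backgrounds of 24.3%, 19.2% and 24.0%. Their median difference was 0.012, -0.029 and 0.0080. Of the 54, 4 (7.41%) were over 1.5-fold apart between any 2 genotypes, all of them between K14-TCL1 and WT, beside 3.72% of all tested genes. With either WT array left out fewer relatives were called against WT, and fewer of all probe sets too. Between both mutants the count was 5 without Tcl1-/- replicate 2, 4 without Tcl1-/- replicate 3 and 5 without K14-TCL1 replicate 3. The calls over all probe sets there were 2515, 2396 and 2580, and 3541 with all arrays.

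Among the galectins, Lgals4, the close relative of Lgals6, read 76.5, 63.6 and 71.7 in Tcl1-/-, 77.0, 87.7 and 84.0 in K14-TCL1, and 97.0 and 90.2 in WT. It was thus lowest where Lgals6 was highest. Lgals4 fell by 0.41 ± 0.085 in Tcl1-/- relative to WT (adjusted p = 0.0108, lost without WT replicate 1) and differed by -0.18 ± 0.085 in K14-TCL1 (adjusted p = 0.192). How far the probes of Lgals4 and Lgals6 tell these genes apart was not tested. Lgals1 rose in both mutants, by 0.43 in Tcl1-/- (adjusted p = 0.000172) and 0.38 in K14-TCL1 (adjusted p = 0.000538). Lgals9 rose in K14-TCL1 by 0.67 ± 0.044 relative to WT (adjusted p = 5.31e-05) and differed by -0.56 ± 0.039 between Tcl1-/- and K14-TCL1 (adjusted p = 6.7e-05). Lgals3bp, a secreted glycoprotein bound by galectin 3, rose by 0.44 in Tcl1-/- (adjusted p = 0.00778, lost without WT replicate 2) and 0.68 in K14-TCL1 (adjusted p = 0.00155).

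Pfn1, profilin, which like Cap1 binds actin monomers, averaged 1408 ± 16.0 in Tcl1-/- arrays, 1850 ± 130 in K14-TCL1 arrays and 1087 ± 40.0 in WT arrays (SD, n = 3, 3 and 2). K14-TCL1 was the higher mutant for Pfn1, and Tcl1-/- for Cap1. Pfn1 rose by 0.37 ± 0.061 in Tcl1-/- (adjusted p = 0.00359) and 0.77 ± 0.061 in K14-TCL1 (adjusted p = 0.00015). Rab6a, the widely expressed paralog of Rab6b, averaged 947 ± 24.5 in Tcl1-/- arrays, 949 ± 77.9 in K14-TCL1 arrays and 962 ± 29.7 in WT arrays, and was not called in any comparison (adjusted p = 0.849, 0.835 and 0.992). Of the other 6 partners of Rab6 listed, 2 were called, 2 (Rabgap1 and Dennd5a) were not called in any comparison and 2 (Bicd1 and Gcc2) were under the filter. Bicd2, a dynein adaptor, fell by 0.38 in Tcl1-/- (adjusted p = 0.0028) and 0.39 in K14-TCL1 (adjusted p = 0.00399), and Kif20a, a mitotic kinesin, fell by 0.74 in K14-TCL1 (adjusted p = 0.000812) and by 0.28 in Tcl1-/- (adjusted p = 0.0436), the call in Tcl1-/- being lost under 8 of 15 alternatives. Lipe, hormone-sensitive lipase, was 0.29 higher in Tcl1-/- than in K14-TCL1 (adjusted p = 0.00902).

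Across the whole series the median log2 intensity of the arrays lay between 6.52 and 6.55. The markers of KCs (6 of 7 measured) summed to 78694 to 79294 in Tcl1-/-, 76222 to 76565 in K14-TCL1 and 81503 to 81799 in WT, with means of Krt5, Krt14, Krt1 and Krt10 between 14630 and 18771. Krt5 was called lower in K14-TCL1 than in WT (adjusted p = 0.0324) and Krt10 higher in Tcl1-/- than in K14-TCL1 (adjusted p = 0.0286). No other KC marker was called. The 4 Langerhans cell markers (Cd207, Cd74, H2-Aa and Epcam) summed to 7645 to 7955 in Tcl1-/-, 6401 to 6473 in K14-TCL1 and 5624 to 5803 in WT, with all 4 called higher in Tcl1-/- against WT, 3 in K14-TCL1 against WT, and 4 in Tcl1-/- against K14-TCL1. The marker without a call there was Cd207. Its mean was 706 for Tcl1-/- arrays, whereas K14-TCL1 (629) and WT (628) hardly differed (adjusted p = 0.980). The step between K14-TCL1 and WT in the sums thus came from Cd74, H2-Aa and Epcam. The order of the sums, which Cd207 did not share in full, was also that of Cap1, Pnpla3, Wdfy1, Lgals6, Reep1 and Cdk5rap1. Its part in their values was not tested. Macrophage markers (4 measured, 1 under the filter) had sums of 1310 to 1360 in Tcl1-/-, 1136 to 1177 in K14-TCL1 and 955 to 1007 in WT, carried by Csf1r, whose means were 1172, 974 and 821 in the same order. C1qa had another order, the mean being 64.8 in Tcl1-/-, 82.9 in K14-TCL1 and 71.2 for WT arrays, with a call for lower in Tcl1-/- than in K14-TCL1 (adjusted p = 0.00586). Epidermal T cell markers (3 of 4 measured) summed to 1451 to 1499 in Tcl1-/-, 1606 to 1650 in K14-TCL1 and 1694 to 1695 in WT. Within that list Thy1 was called lower and Cd3e and Cd3g higher in both mutants than in WT. The gut and glandular markers (Vil1, Cdh17 and Krt20), where Lgals4 and Lgals6 are known, were all under the filter, with sums of 38.1 to 46.1 in Tcl1-/-, 39.2 to 45.8 in K14-TCL1 and 43.6 to 44.1 in WT. Melanocyte markers (3 of 4 measured, 1 under the filter) summed to 144 to 158 in Tcl1-/-, 153 to 164 in K14-TCL1 and 126 to 130 in WT, where Dct was called higher in Tcl1-/- (adjusted p = 0.00262) and in K14-TCL1 (adjusted p = 0.00195) than in WT. The markers of fibroblasts, endothelium and muscle that passed the filter (Col1a2, Dcn, Kdr and Ckm) were not called in any comparison, the lowest adjusted p being 0.0629 for Col1a2 between Tcl1-/- and WT, and the neutrophil and adipocyte markers measured were all under the filter. In bulk samples fewer cells of a type and less RNA per cell cannot be told apart.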

How the data were processed

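Total epidermal RNA of 8 mice, of which 2 were WT, was hybridized to Affymetrix mouse arrays. The deposited values are RMA intensities on the linear scale made by the authors, and a second deposited table held the same intensity values (181520 of 181520 equal). For RMA, a version was not given in the sources used here. Nothing in the labels says whether the animals came from separate litters, so p-values measure the spread between these samples. Array number, not counts, limits precision.

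Intensities were taken to log2 with no pseudocount. Of 22690 probe sets, 64 controls, 492 unnamed ones and 578 with several names were dropped. Then 1633 older symbols were updated with RefSeq (GRCm38.p6), 19478 being current and 445 kept. The files name no build, so RefSeq gave only the order of genes and the promoters. Tested were 15372 probe sets whose highest genotype mean was at least 5 (log2, an intensity of 32), with limma 3.58.1 in R 4.3.3 over all 8 arrays, 1 mean a genotype and Benjamini-Hochberg adjustment. Figures used matplotlib 3.10.9. The fit was tested on simulated data.

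The 10 members, the lists and the tests were chosen with earlier results of these data known. Named were all members, their 2 nearest genes by pattern, up to 4 called neighbours and relatives a comparison by size of difference, and neighbours over 1.5-fold. Alternatives left out each array, changed filter, scaling, variance prior, probe sets or neighbourhood, blocked the replicate number or used the criteria of the methods. For named neighbours and relatives they were added after seeing the data.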

Additional observations from a re-analysis of the deposited data

How the results depend on the processing

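Of 48 log2 differences of the members' probe sets, 26 were over 0.5, and none of these changed sign in 260 alternative values. Of the 22 smaller ones 6 did, in 9 of 220 values. Of all 480 values 32 moved by more than 1 residual SD, all with a WT array left out. With 1 WT array left, that array is assumed to vary like the other groups. With 1 array left out the probe sets called ran from 1692 to 4055 (Tcl1-/- vs WT, 3482 with all arrays), 998 to 2830 (K14-TCL1 vs WT, 2750) and 2299 to 3542 (Tcl1-/- vs K14-TCL1, 3541), with the lowest count without WT replicate 1, WT replicate 1 and Tcl1-/- replicate 1. In the same 3 comparisons the neighbours of the members called ran from 11 to 22, 7 to 13 and 14 to 17, the neighbours of Tcl1 from 0 to 4, 0 to 2 and 0 to 2, and the relatives from 7 to 20, 7 to 13 and 4 to 9.

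The criteria of the methods (p under 0.001 and at least 1.4-fold from the median on at least 20% of arrays) left 369 probe sets to test and gave 274, 226 and 228 calls, of which 2, 2 and 3 were neighbours of the members, out of 4 left, and 0, 1 and 1 relatives, out of 1 left. Fewer genes could pass there by construction. With 10 neighbours a side, 46, 33 and 43 of 180 neighbours of the members and 6, 4 and 3 of 20 around Tcl1 were called. The shares over all tested genes were 24.3%, 19.2% and 24.0%. Within 1 Mb of Tcl1, 4, 2 and 2 of 10 genes were called. Same-numbered arrays had correlations of deviations from -0.063 to 0.157, and differently numbered ones from -0.157 to 0.132. Deviations from the mean of 2 or 3 arrays are tied to each other, so these values cannot decide whether the replicate numbers paired the arrays. With the replicate number as a block the K14-TCL1 vs WT count fell to 1824 probe sets, and in Tcl1-/- vs K14-TCL1 5 relatives and 0 neighbours of Tcl1 were called. In that comparison 5 relatives were called with no filter, and 0 neighbours of Tcl1 with no filter, a filter at 6, limma's trend or no _x_at and _s_at probe sets. The cause of these shifts was not tested. Low intensities hold mostly background, which limits folds of Lgals6, Reep1 and Rab6b.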
